A study of Mus musculus with 12 samples.

Results

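Pyruvate and lactate metabolism was followed through 10 genes chosen by symbol, out of the 55480 genes in the count files that the GENCODE annotation (mouse release 21) lists. Ldha and Ldhb encode subunits of lactate dehydrogenase, Pdha1, Pdhb, Dlat and Dld encode the catalytic parts of the pyruvate dehydrogenase complex, Mpc1 and Mpc2 form the mitochondrial pyruvate carrier, and Pfkp and Pkm encode glycolytic enzymes. Lactate dehydrogenase converts lactate and pyruvate into each other in the cytosol, the carrier brings pyruvate into the mitochondrion, and the pyruvate dehydrogenase complex turns it into acetyl-CoA for the tricarboxylic acid cycle. The mouse oocyte uses glucose poorly and relies on pyruvate, much of which its cumulus cells make from glucose.

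The RNA came from fully grown oocytes at the germinal vesicle (GV) stage, which have an intact nuclear envelope, taken from a healthy B6D2_F1 female mouse of 12 weeks into M2 medium with milrinone, an inhibitor that holds meiosis. Poly(A) RNA-seq was performed on 12 libraries in 6 groups of 2. Whole oocytes were amplified for 10, 14 or 18 cycles (6 oocytes), and 1/2, 1/4 and 1/8 of an oocyte, diluted from the lysates of 2 further oocytes, were amplified for 18 cycles. The same amount of the ERCC spike-in, a mix of synthetic RNAs, was added to each library.

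Levels are given as CPM, the counts of a gene for each 1000000 counts on genes in that library. The gene counts were 11597144 and 9189672 at 10 cycles, 12349577 and 13806199 at 14 cycles, 3017069 and 1706478 in whole oocytes at 18 cycles, 4024670 and 3598549 in 1/2, 4027907 and 5049518 in 1/4, and 11404262 and 1702062 in 1/8 of an oocyte. The whole oocytes at 18 cycles stood apart, with 1873 and 1158 gene counts per ERCC count against 323 to 360 in the whole oocytes at 10 and 14 cycles, so the fractions were compared with both. Cycle number, oocyte, depth and preparation cannot be told apart in these groups. The replicates of whole oocytes are separate oocytes and those of fractions are lysate portions, so p-values measure the spread between them and not between animals. All 12 oocyte markers, among which Gdf9 had the highest mean CPM, had counts in each of the 12 libraries.

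Ldhb (ENSMUSG00000030246, GRCm38 chromosome 6 from 142490249 to 142507957, minus strand) was the most abundant of the 10 genes in each library. Its CPM was 2759 and 2583 at 10 cycles, 2494 and 2863 at 14 cycles, and 2424 and 855 in whole oocytes at 18 cycles. In the fractions it was 2416 and 1859 for 1/2, 2312 and 2839 for 1/4, and 2938 and 1829.55 for 1/8. A single whole oocyte at 18 cycles lay far below the remaining 11 libraries. Among those 11, the other whole oocyte at 18 cycles and both libraries of 1/2 lay below all whole oocytes at 10 and 14 cycles. The libraries of 1/4 and 1/8 overlapped with whole oocytes at 10 and 14 cycles. Ldhb ranked 11 to 27 among all genes by count in those 11 libraries and 124 in the low oocyte, replicate 2 of the whole oocytes at 18 cycles. It did not pass the threshold in any comparison that used size factors from all genes. Without replicate 1 of the whole oocytes at 18 cycles it passed against 10 and 14 cycles, but that low oocyte then stands alone for 18 cycles and the spread comes from the other groups. Of the 50-base stretches of its transcripts, 20.99% also occur in the pseudogene Gm5514, which had 817 counts over the 12 libraries against 211514 for Ldhb. The files list 0 reads aligned to more than 1 place in every library, and whether such reads were removed before counting is not stated.

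Ldha (ENSMUSG00000063229, chromosome 7 from 46841475 to 46855627, plus strand) encodes the subunit that prevails in skeletal muscle and other glycolytic tissue. It had 100 and 1 counts at 10 cycles, 9 and 74 at 14 cycles, and 18 and 0 in whole oocytes at 18 cycles. The fractions had 0 and 6, 2 and 6, and 7 and 0 counts for 1/2, 1/4 and 1/8. The gene was therefore high in 1 oocyte of each whole-oocyte group and near or at 0 in the other libraries. Among the counts of Ldha, Ldhb and the germ-cell subunit gene Ldhc, Ldhb took from 97.96% (95% Wilson interval 97.8 to 98.1) in replicate 2 at 14 cycles to 99.99% (99.9 to 100) in replicate 1 of 1/2. In replicate 2 of the whole oocytes at 18 cycles, the 0 counts of Ldha allow a share of up to 0.205%. Intervals and limits cover counting error only, since amplified reads without molecular identifiers are not independent molecules.

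Ldha was set beside 15 markers of cumulus and granulosa cells, which surround the oocyte in the follicle. It was at 8.62, 5.97 and 5.36 CPM in replicate 1 at 10 cycles, replicate 1 at 18 cycles and replicate 2 at 14 cycles, and at most 1.67 CPM elsewhere. The summed CPM of the 15 markers was 232 and 88.5 at 10 cycles, 115 and 174 at 14 cycles, and 74.2 and 29.9 in whole oocytes at 18 cycles. It was 36.8 and 32.8 for 1/2, 58.1 and 62.8 for 1/4, and 83.1 and 75.2 for 1/8. Within each group of whole oocytes, the one with more Ldha thus had the larger sum. Of the 15 markers, 11 were higher and 3 lower in that oocyte at 10 cycles, and 10 were higher and 4 lower at 14 and at 18 cycles. Those lower were Kitl, Has2 and Cyp19a1 at 10 cycles, Fshr, Kitl, Has2 and Ptgs2 at 14 cycles, and Fshr, Has2, Ptgs2 and Cyp19a1 at 18 cycles. Nr5a2, the marker with the highest mean CPM, had counts in all 12 libraries, as did Cyp19a1, Kitl and Inha. Each library had counts for 7 to 14 of the 15 markers, and those at 0 in most libraries were Slc38a3 (11), Fshr (9), Npr2 (8) and Foxl2 (7).

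In the fractions 2 markers carry most of the sum. Nr5a2 and Cyp19a1, the 2 with the highest mean CPM, make up 76.4% to 89.3% of it there. In whole oocytes they make up 31.8%, 53.1% and 34.4% at 10, 14 and 18 cycles in the oocyte with more Ldha. In its partner they make up 79.2%, 71.3% and 74.5%. The other 13, summed after these values were seen, came to 158 and 18.4 CPM at 10 cycles, 33.1 and 81.8 at 14 cycles, and 48.7 and 7.62 in whole oocytes at 18 cycles. In the fractions they came to 8.70 and 4.45 CPM for 1/2, 11.7 and 14.1 for 1/4, and 8.86 and 11.8 for 1/8. With or without the 2, the whole oocyte of each pair with more Ldha had the larger sum. Among the fractions this held in 1/4, did not hold in 1/2, and in 1/8 held only with the 2 included. Neither the part of these cells in the Ldha counts nor the source of the marker counts was tested. Fewer such cells and less RNA per cell cannot be told apart.

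**Figure D1:**
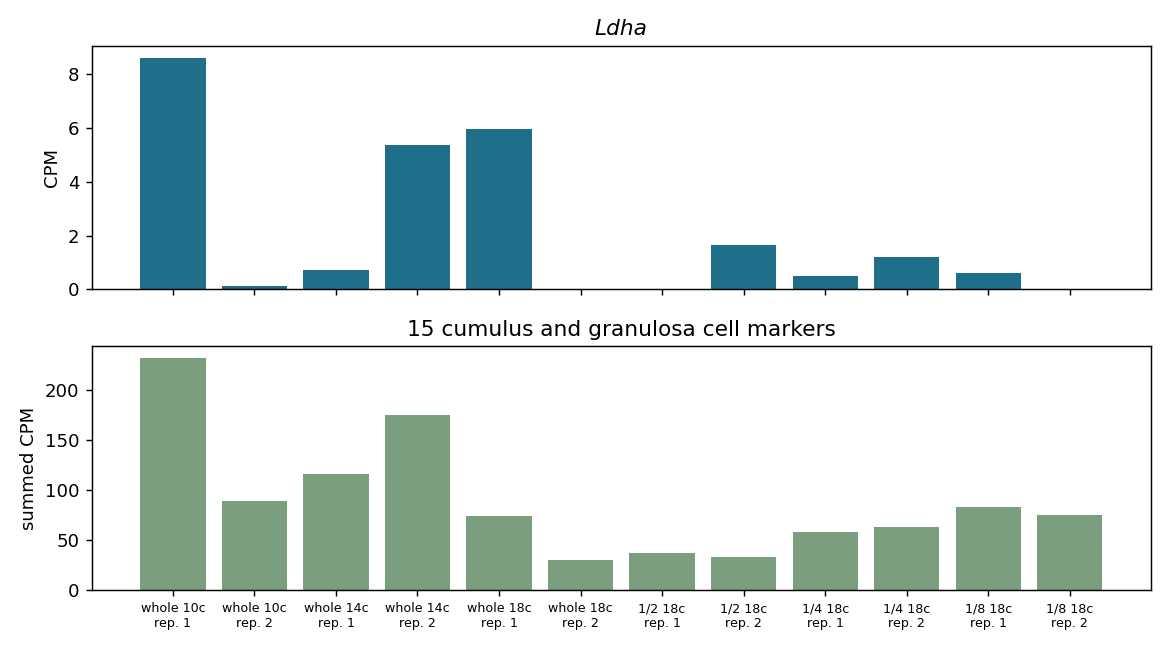
CPM of Ldha (top) and summed CPM of 15 cumulus and granulosa cell markers (bottom), 1 bar per library; c stands for PCR cycles and rep. for replicate. In each pair of whole oocytes the one with more Ldha has the larger sum, 232 against 88.5 at 10 cycles, and in the fractions Nr5a2 and Cyp19a1 alone carry at least 76.4% of it.

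In the pyruvate dehydrogenase complex, the genes of the E1 subunits (Pdha1 and Pdhb) and of E2 (Dlat) had no call with size factors from all genes. This was unlike Dld, which encodes the E3 subunit shared with other oxoacid dehydrogenases. Pdha1 ranged from 50.4 to 92.3 CPM with a median of 71.0 over the 12 libraries, Pdhb from 25.8 to 68.6 with a median of 39.5, and Dlat from 26.1 to 51.6 with a median of 38.3. None of these 3 genes passed the threshold in a comparison with size factors from all genes. Pdhb came closest, at 0.79 (SE 0.27, edgeR adjusted p = 0.0418, both oocytes higher) at 18 against 14 cycles. With ERCC size factors at 18 against 10 cycles, Pdha1 (2.41), Pdhb (2.97) and Dlat (2.50) passed upward, beside 47.6% of all genes, and Dld (0.48) did not. The same 3 passed against 14 cycles, beside 47.9%, and Dld did not. Pdhx, the gene of the part that binds E3, lies outside the 10 and is named after its values were seen. It was at 417 and 405 CPM at 10 cycles, 399 and 428 at 14 cycles, and 109 and 105 in whole oocytes at 18 cycles. In the fractions it was at 238 and 170 CPM for 1/2, 187 and 239 for 1/4, and 399 and 392 for 1/8, so Dld was not the only gene of the complex to differ. An exon overlap of Pdha1 with Map3k15 on the opposite strand leaves its counts uncertain if the counting ignored strand.

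Dld (ENSMUSG00000020664, chromosome 12 from 31331277 to 31351453, minus strand) was at 161 and 146 CPM at 10 cycles, 159 and 171 at 14 cycles, and 34.1 and 44.0 in whole oocytes at 18 cycles. In the fractions it was at 33.3 and 79.2 CPM for 1/2, 77.2 and 98.6 for 1/4, and 144 and 162 for 1/8. Both whole oocytes at 18 cycles lay below all 4 at fewer cycles, and both libraries of 1/8 lay among or next to those 4. Against 10 cycles, the log2 fold change at 18 cycles was -1.72 (SE 0.23, adjusted p = 0.000328, edgeR with Benjamini-Hochberg adjustment over all genes), with both oocytes lower. Against 14 cycles it was -1.79 (SE 0.23, adjusted p = 0.000259 in edgeR, both oocytes lower). The median of all genes was -0.29 in both comparisons. With ERCC size factors that median was 1.96 against 10 cycles and Dld was at 0.48, so it was higher at 18 cycles in direction but below the median by 1.47.

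In 1/8 of an oocyte against the whole oocytes at 18 cycles, Dld rose by 1.77 on the log2 scale (SE 0.36, adjusted p = 0.00115 from edgeR with Benjamini-Hochberg adjustment), with both libraries higher. Without replicate 1 of the whole oocytes it was at 1.51 and adjusted p = 0.0319. The same 2 whole oocytes at 18 cycles enter this comparison and those between cycle numbers with opposite sign, so opposite values in them are not independent, for Dld or any other gene. In 1/2 against whole oocytes at 10 cycles it was at -1.23 (SE 0.30, edgeR adjusted p = 0.00403). That call was lost without replicate 1 or 2 at 10 cycles (-1.19 and -1.25) and without replicate 1 of 1/2 (-0.74). In 1/8 against whole oocytes at 10 cycles Dld was at 0.05 (SE 0.29) and did not pass.

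Mpc2 (ENSMUSG00000026568, chromosome 1 from 165460637 to 165481214, plus strand), a subunit of the pyruvate carrier, went the other way. It was at 36.4 and 52.9 CPM at 10 cycles, 40.0 and 41.1 at 14 cycles, and 135 and 127 in whole oocytes at 18 cycles. In the fractions it was at 190 and 109 CPM for 1/2, 84.2 and 99.4 for 1/4, and 53.3 and 118 for 1/8. All 8 libraries at 18 cycles were above the 4 at fewer cycles, by the least in replicate 1 of 1/8. The log2 fold change was 1.81 at 18 against 10 cycles (SE 0.24, adjusted p = 0.000336) and 1.99 against 14 cycles (SE 0.24, adjusted p = 0.000210), both from edgeR with Benjamini-Hochberg adjustment. In 1/2 against whole oocytes at 10 cycles it was 1.98 (SE 0.34, edgeR adjusted p = 0.000179), and without replicate 1 of 1/2 it was 1.49 and missed the threshold at an adjusted p of 0.0111.

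Mpc1, the partner of Mpc2 in the carrier, was much lower, from 0.586 to 10.9 CPM with a median of 4.76. It had 1 count in replicate 2 of the whole oocytes at 18 cycles and no call in comparisons with size factors from all genes. Of its 50-base stretches 26.3% also occur in other genes, Mpc1-ps among them, so its counts are uncertain, and for Mpc2 that share was 0.122%.

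Of the glycolytic genes, Pkm, which encodes the pyruvate kinase that forms pyruvate, was at 193 and 154 CPM at 10 cycles, 208 and 214 at 14 cycles, and 94.5 and 131 in whole oocytes at 18 cycles. It was at 106 and 122 CPM for 1/2, 178 and 193 for 1/4, and 232 and 133 for 1/8. Whole oocytes at 18 cycles were below those at fewer cycles and overlapped 1/2, and Pkm did not pass the threshold against 14 cycles (log2 fold change -0.60, SE 0.24, edgeR adjusted p = 0.0696). It passed there without replicate 2 of the whole oocytes at 18 cycles, and with a filter of at least 10 counts in every library. Pfkp, a phosphofructokinase gene, ranged from 13.9 to 30.5 CPM with a median of 15.7, without a call in these comparisons. Pkm shares 25.8% of its 50-base stretches with other genes, and Pfkp shares exon bases with Pitrm1 on the opposite strand.

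**Figure D2:**
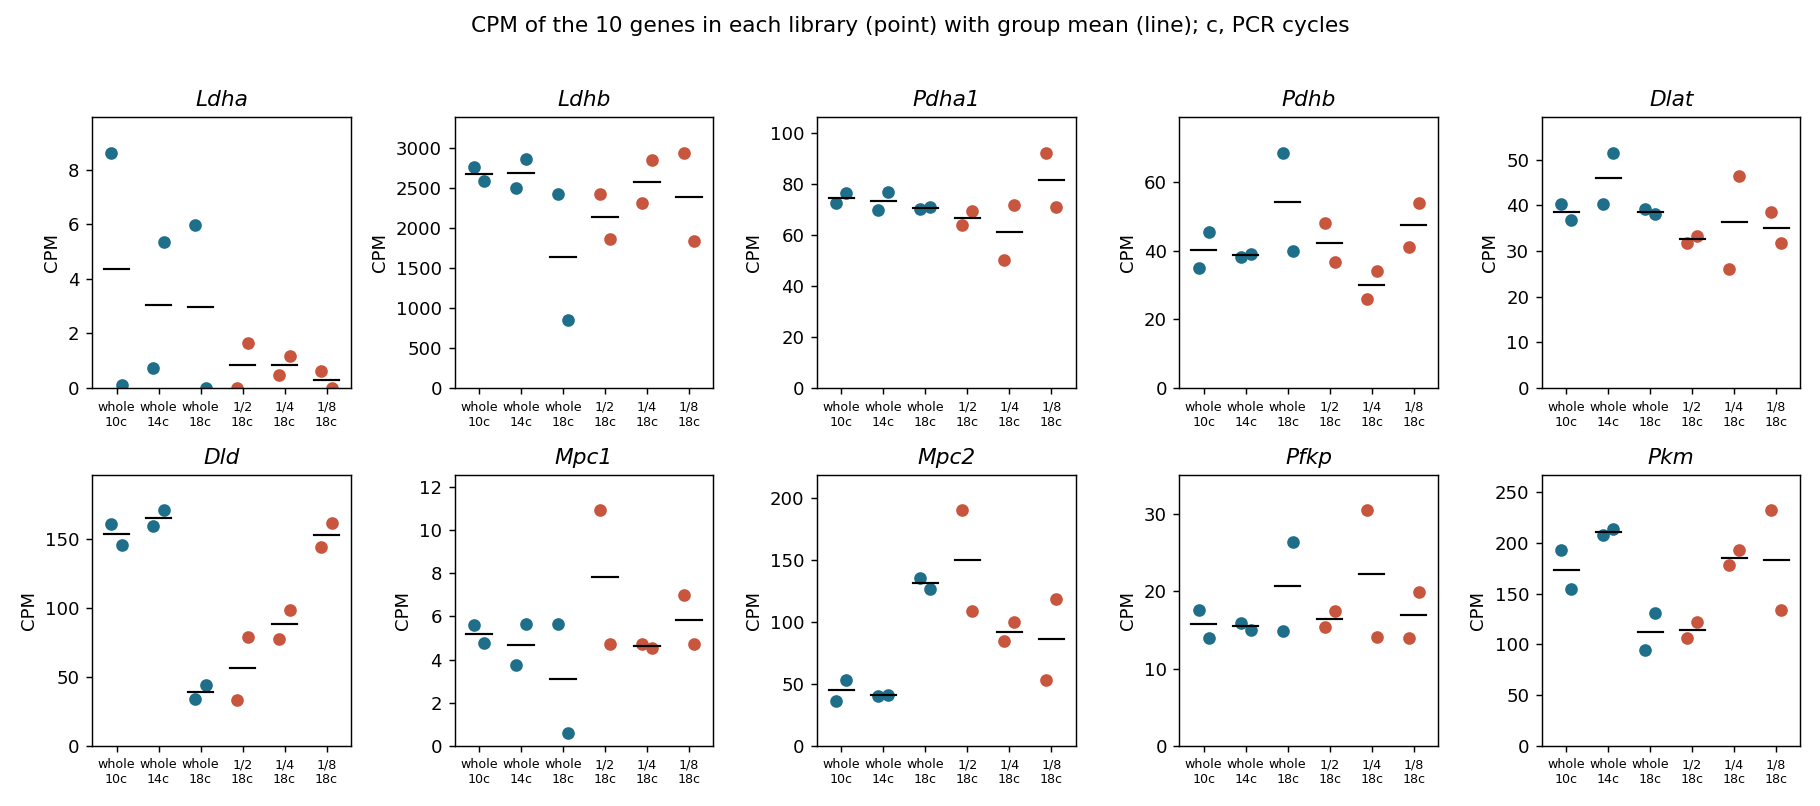
CPM of each of the 10 genes in the 12 libraries, with 1 point per library and a line at the group mean (n = 2); whole oocytes are blue, fractions red, and c stands for PCR cycles. Dld was at 146 CPM or more in whole oocytes at 10 and 14 cycles and at 44.0 or less in those at 18 cycles, and Mpc2 was at most 52.9 in the former and at least 127 in the latter.

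Levels of different genes were compared per kilobase of exon length over the 4 whole oocytes at 10 and 14 cycles. Ldhb had 1704 ± 106 CPM per kilobase (SD, n = 4), followed by Dld with 43.2 ± 2.79, Pkm with 38.5 ± 5.37 and Pdha1 with 19.8 ± 0.878. Pdhb had 10.2 ± 1.14, Dlat 8.66 ± 1.31, Mpc2 5.80 ± 0.973, Mpc1 2.37 ± 0.434, Pfkp 1.17 ± 0.115 and Ldha 1.12 ± 1.22 CPM per kilobase (SD, n = 4 each). Dld and Pkm, Pdhb and Dlat, and Pfkp and Ldha overlapped across these oocytes, and the other neighbours in the order did not. Exon lengths count all annotated transcripts, 13401 bases for Pfkp and 7344 for Mpc2, so genes with long rare transcripts come out low. The 10 genes together made up from 0.133% of the gene counts in replicate 2 of the whole oocytes at 18 cycles to 0.356% in replicate 1 of 1/8.

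The number of the 10 genes that passed was read against the share of all genes that did, at an adjusted p under 0.01. At 14 against 10 cycles, 0 of the 10 genes passed in edgeR, beside 0% of 17532 genes tested (0 of the 10 and 513 of all had an unadjusted p under 0.05, and DESeq2 called 0 and 2). At 18 against 10 cycles 2 passed, Mpc2 upward and Dld downward, beside 23.1% of all genes, and the same 2 passed against 14 cycles beside 23.2%. Among genes with at least 10 counts in every library, which leaves 8 of the 10, these were 2 beside 44.5% and 3 (Pkm added) beside 43.8%. With 1 library left out, these shares went down to 9.39% (without replicate 2 at 10 cycles) and 10.9% (without replicate 2 at 14 cycles), and Dld and Mpc2 passed each time. The median log2 fold change of the 10 genes was 0.02 and 0.14 in these comparisons. Under ERCC size factors, with which nearly all calls were upward, 7 of the 10 passed in each, beside 47.6% and 47.9% of all genes. The 3 comparisons share oocytes and are not independent.

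In 1/2 and in 1/4 against whole oocytes at 18 cycles, 0 of the 10 genes passed in edgeR, beside 0.122% and 0.460% of 14788 genes. With 1 library left out these shares ran from 0% to 0.212% and from 0% to 0.712%, with 0 of the 10 each time. An unadjusted p under 0.05 was found for 0 and 2 of the 10, beside 1943 and 2331 of all 14788 genes. DESeq2 called 0 of the 10 in both, beside 1.03% and 1.63%. In 1/8 only Dld passed, beside 15.7% of all genes, and 0 of the 10 passed without replicate 1 of the whole oocytes, beside 7.52%. With at least 10 counts in every library Dld alone passed again, beside 25.8%. In 1/8 against 1/2, 0 passed beside 5.94%, while DESeq2 called Dld, beside 9.79%. An unadjusted p under 0.05 was found there for 2 of the 10, beside 4285 of all 14788 genes. The share of all genes called in 1/8 against 1/2 went down without replicate 1 of 1/2. The fractions come from 2 oocytes, and whether equal replicate numbers mark the same oocyte is not stated. With the replicate number as a block Dld passed, beside 7.72%, but that block also pairs the whole oocytes, which are separate oocytes.

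Against whole oocytes at 10 cycles, where fraction and cycle number differ together, 2 passed in 1/2 beside 16.2%, 0 in 1/4 beside 9.99% and 0 in 1/8 beside 0% of 18041 genes. With 1 library left out, the shares for 1/2 and 1/4 went down to 7.22% (without replicate 1 of 1/2, where 0 of the 10 passed) and 3.15% (without replicate 1 of 1/4). With at least 10 counts in every library they were 33.5% and 21.4%, with 2 and 0 of the 8 genes left. In 1/4, 2 of the 10 had an unadjusted p under 0.05, beside 5778 of all 18041 genes, and DESeq2 called Mpc2, beside 14.5%. In 1/8, 1 had an unadjusted p under 0.05 and DESeq2 called 0. Of all 18041 genes in 1/8, 2278 had an unadjusted p under 0.05 and DESeq2 called 44.

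Size factors from the ERCC molecules place the fractions on a scale of RNA per spike-in. Ldhb counts per 100 ERCC counts were 89.3 and 93.0 at 10 cycles, 86.5 and 101 at 14 cycles, and 454 and 99.0 in whole oocytes at 18 cycles. The fractions had 106 and 63.9 (1/2), 49.5 and 49.3 (1/4), and 14.5 and 8.51 (1/8). The fractions stepped down with dilution without overlap. Relative to the mean at 10 cycles, Ldhb stood at 93.3% in 1/2, 54.2% in 1/4 and 12.6% in 1/8, while the dilutions were to 1/2, 1/4 and 1/8. Against the mean of the whole oocytes amplified for 18 cycles, it stood at 30.7%, 17.9% and 4.16%. That mean rests on replicate 1: against replicate 2 alone the fractions stood at 85.9%, 49.9% and 11.6%, and against replicate 1 alone at 18.7%, 10.9% and 2.53%. Between groups of 2 libraries each, an exact permutation test cannot reach p = 0.05, and the order of the fractions was not tested. These percentages are therefore a description, and the edgeR calls with ERCC size factors are given below.

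Dld and Mpc2 differed from Ldhb on this scale too. Dld had 6.39 and 5.09 counts per 100 ERCC counts in whole oocytes at 18 cycles, close to the 5.20 and 5.25 at 10 cycles. It stood at 40.03%, 32.2% and 14.0% of the 10-cycle mean in 1/2, 1/4 and 1/8, and at 36.4%, 29.3% and 12.7% of the 18-cycle mean. Mpc2 had 25.3 and 14.7 counts per 100 ERCC counts at 18 cycles against 1.18 and 1.90 at 10 cycles, and 8.33 and 3.75 in 1/2, 1.80 and 1.73 in 1/4, and 0.263 and 0.549 in 1/8. Its fractions stood at 392%, 115% and 26.4% of the 10-cycle mean, with 243% in 1/2 without replicate 1 and 17.1% in 1/8 without replicate 2. Against the whole oocytes at 18 cycles they stood at 30.2%, 8.83% and 2.03%, with 18.7% in 1/2 and 1.31% in 1/8 without the same libraries, so 1/2 was above one reference and below the other. The sum of the 10 genes stood at 94.7%, 54.1% and 13.1%, beside 115%, 56.8% and 14.0% for all genes. Against 18 cycles the sum stood at 29.9%, 17.1% and 4.14%, beside 25.8%, 12.8% and 3.16%. Against replicate 2 alone of those oocytes it stood at 67.5%, 38.5% and 9.34%, and against replicate 1 alone at 19.2%, 10.97% and 2.66%.

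**Figure D3:**
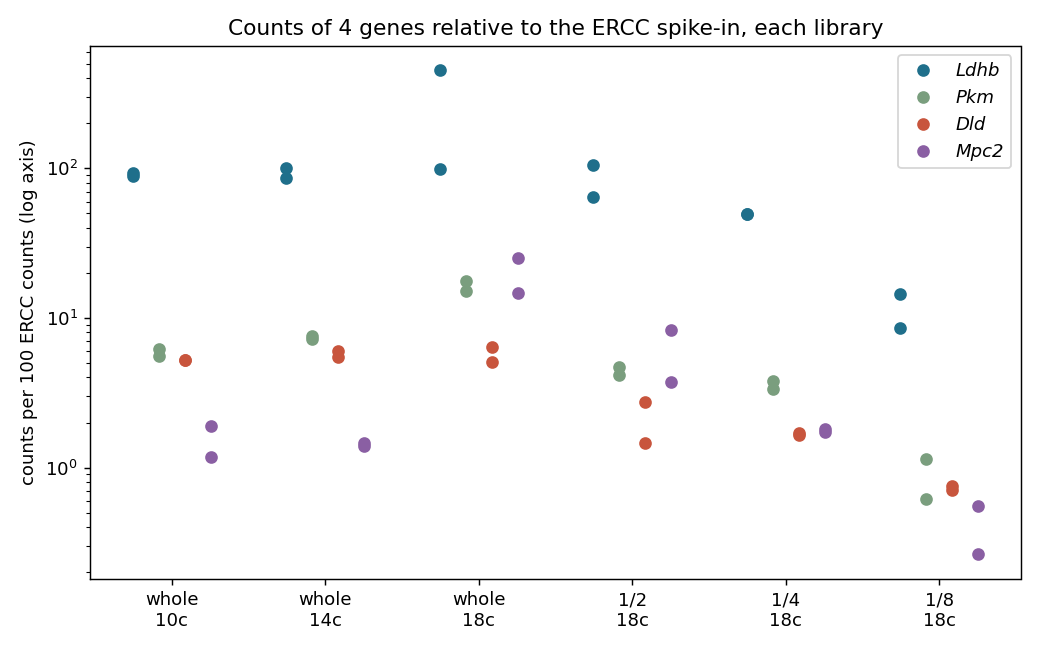
Counts of Ldhb, Pkm, Dld and Mpc2 per 100 ERCC counts on a log axis, with 1 point per library and 2 libraries per group; c stands for PCR cycles. Ldhb falls from 106 and 63.9 in 1/2 to 14.5 and 8.51 in 1/8, and Dld in whole oocytes stays between 5.09 and 6.39.

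Scaled by ERCC, 9 of the 10 genes fell in 1/2 against whole oocytes at 18 cycles, beside 52.0% of all genes (edgeR, adjusted p under 0.01). In 1/4 and 1/8 all 10 fell, beside 69.7% and 87.5%. The gene without a call in 1/2 was Mpc1. Their median log2 fold changes were -2.03, -2.80 and -5.10, against -1.997, -2.69 and -4.92 for all genes tested. DESeq2 called 8, 9 and 10 of the 10 in 1/2, 1/4 and 1/8, beside 51.7%, 66.3% and 85.2% of all genes. Among genes with at least 10 counts in every library, the edgeR shares were 85.5%, 99.0% and 100%. Those of the 10 genes that this filter keeps all passed. The edgeR counts for 1/2 and 1/4 rested on single libraries. In 1/2 they were 4 of 10 without replicate 1 of the whole oocytes (beside 21.1% of all genes) and 0 without replicate 2 of 1/2 (beside 13.2%). In 1/4 they were 6 without replicate 1 of the whole oocytes (beside 50.9%) or without replicate 2 of 1/4 (beside 46.7%). The ERCC calls of Ldha rest on 18 counts in 1 whole oocyte. With all libraries kept, the call of Ldha in 1/2 held in 1 of 4 other settings, and that of Mpc1 in 1/4 in 2 of 4. In 1/8 the calls of Ldha and Mpc1 also rested on single libraries.

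The other genes of pyruvate handling are given by list. Beside them, 23.1% of all genes were called at 18 against 10 cycles. In 1/8 against whole oocytes at 18 cycles 15.7% were called. Among genes with at least 10 counts in every library these shares were 44.5% and 25.8%. The counts by list are a description. The genes named are the largest rise and fall past the threshold in each list, and the 2 comparisons share the whole oocytes at 18 cycles. Among transporters and other lactate dehydrogenases, 2 of 7 tested rose at 18 against 10 cycles and 0 fell. Bsg, which encodes basigin, the chaperone of monocarboxylate transporters, had the largest rise, 2.62 (SE 0.22), and in 1/8 against whole oocytes at 18 cycles it was at -1.91 (SE 0.29), the 1 call among 6 tested. Of Pdhx and the genes that regulate pyruvate dehydrogenase or lead pyruvate elsewhere, 2 of 13 rose and 2 fell, Pdhx among the latter. The kinase gene Pdk3 was at 1.09 (SE 0.23) and the malic enzyme gene Me1 at -2.33 (SE 0.22). Me1, at 1.75 (SE 0.33), had the largest rise of the 2 of 13 that rose in 1/8, the other being Pdhx, and 0 fell.

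Among genes of glucose uptake and glycolysis, 2 of 12 tested rose and 1 fell at 18 against 10 cycles, with Gpi1 at 1.504 (SE 0.26) and Tpi1 at -1.90 (SE 0.28). In 1/8 they stood at -1.08 (SE 0.29) and 2.15 (SE 0.37), the 2 calls among 10 tested. In the tricarboxylic acid cycle 3 of 17 rose and 4 fell, led by Sdhb at 1.32 (SE 0.21) and Sdhd at -2.01 (SE 0.22), and in 1/8 2 of 16 rose, Sdhc at 2.37 (SE 0.39) the most, and 0 fell. In the malate-aspartate shuttle, which moves reducing equivalents into mitochondria, 2 of 6 rose and 3 fell, with Slc25a12 at 2.25 (SE 0.36) and Mdh1 at -2.25 (SE 0.26). In 1/8 these 2 stood at -2.66 (SE 0.50) and 2.13 (SE 0.38), 1 up and 1 down among 6. The median log2 fold changes of the 5 lists at 18 against 10 cycles ran from -1.07 for the shuttle to 0.45 for the tricarboxylic acid cycle, beside -0.29 for all genes.

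Oocyte markers were low in the same whole oocytes as Dld. At 18 against 10 cycles 10 of 12 fell and 0 rose, beside 23.1% of all genes called. With at least 10 counts in every library that share was 44.5% (25.8% in 1/8 against whole oocytes at 18 cycles). Oosp1 was at -2.46 (SE 0.31). In 1/8 against whole oocytes at 18 cycles 8 of 12 rose and 0 fell, beside 15.7%, with Oosp1 at 2.75 (SE 0.33). Their summed CPM was 25996 and 23593 at 10 cycles, 26012 and 27341 at 14 cycles, 7545 and 6386 in whole oocytes at 18 cycles, 10016 and 9329 for 1/2, 13674 and 14844 for 1/4, and 21533 and 21338 for 1/8. Any part of what sets these levels in the values of Dld and Mpc2 was not tested. Of the cumulus and granulosa markers, 2 of 13 tested fell at 18 against 10 cycles, beside the same 23.1%, Kitl the most at -1.99 (SE 0.47). In 1/8 1 of 9 rose, beside 15.7%, Cyp19a1 at 2.34 (SE 0.45), while the median of the 9 was -1.21 against 0.03 for all genes. The whole oocytes differed in this list. The 13 markers other than Nr5a2 and Cyp19a1 came to 48.7 CPM in replicate 1 at 18 cycles and to 7.62 in replicate 2. With 8.86 and 11.8 CPM, both libraries of 1/8 lay below the first and above the second, so the direction depends on the oocyte.

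The genes most like Ldhb across the 12 libraries, among 8312 protein-coding genes with a mean CPM of at least 10, were Mettl7a2 (r = 0.961), Aldh9a1 (r = 0.937) and Zc3h11a (r = 0.932, Pearson, log2 of CPM + 1). Each shares with Ldhb its lowest value in replicate 2 of the whole oocytes at 18 cycles, and the values share the libraries' depth. Aldh9a1, for example, was at 138 CPM in that oocyte and between 253 and 302 in the other 11 libraries.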

How the data were processed

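Poly(A) RNA-seq of 12 libraries was analysed from the gene and ERCC counts that the authors deposited, made with cutadapt, STAR and HTSeq (2.5, 2.7.2a and 0.9.1 in the submitters' processing notes; the methods name other versions) on GRCm38, without normalization. The methods give HTSeq's default parameters, which use strand, but for another version than the notes, and a tag on the files may mean that strand was ignored, so this was not settled. Reads on no feature (6.90% to 10.8%) and ambiguous reads (2.64% to 4.53%) were left out of library sizes. Gene models were from GENCODE mouse release 21, which lists 55480 of the genes in the files. edgeR 4.0.16 in R 4.3.3 (quasi-likelihood test, Benjamini-Hochberg adjustment) was run on all genes that reached 5 counts in 2 or more libraries of a fit, with median-ratio or ERCC size factors and a threshold of 0.01. Fits held the 6 whole oocytes, the 8 libraries at 18 cycles, or all 12. Alternatives were DESeq2 1.42.0, other filters, other size factors, a replicate block and each library left out. The members and lists were chosen with earlier results of these data known. Genes named are the 10 members, per list the largest rise and fall at 18 against 10 cycles and in 1/8, the highest marker of each marker list and the 3 genes most like the member with the highest level. Outside that rule, and chosen after their values were seen, are Ldhc, Pdhx, the markers lower in oocytes with more Ldha, those at 0 in most libraries or in none, and genes that share sequence or exons with members. In all 6 groups, replicates differed by more than counting error (chi-square per degree of freedom 10.8 to 18.4).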

Additional observations from a re-analysis of the deposited data

How the results depend on the processing

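Each group has 2 libraries, whole oocytes at 18 cycles stand apart, and strand in counting is not settled. Of 467 log2 fold changes recomputed, 422 kept direction and call, 39 kept direction only and 6 were reversed; of 480 level values, 425 stayed within 1 SD. Dld and Mpc2 kept their calls at 18 against 10 and 14 cycles in every alternative that scaled by all genes, each library left out included. With ERCC size factors 7 and 7 members passed there in place of 2, beside 47.6% and 47.9% of all genes, and Dld was reversed, at 0.48 and 0.43.

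In 1/8 against 1/2, 1 member passed with DESeq2, without a filter, with at least 10 counts in every library and with a replicate block (beside 9.79%, 5.52%, 10.9% and 7.72% of all genes), and 0 to 1 with a library left out (beside 0.568% to 6.30%). In 1/4 against 10 cycles it was 1 with DESeq2 and without a filter (beside 14.5% and 7.77%), and 0 to 1 with a library left out (beside 567 to 2158 of all genes). In 1/8 against whole oocytes at 18 cycles it was 0 to 1 (0 without replicate 1 of the whole oocytes; 7.52% to 14.6% of all genes), and in 1/2 against 10 cycles 0 to 2 (0 without replicate 1 of 1/2; 7.22% to 18.5%). With ERCC size factors it was 0 to 9 in 1/2 (0 without replicate 2 of 1/2, 4 without replicate 1 of the whole oocytes), beside 13.2% to 60.4%, and 6 to 10 in 1/4, beside 46.7% to 74.3%. Without replicate 1 of the whole oocytes, the one left has 0 counts of Ldha, and the ERCC values of Ldha were reversed, at 6.88, 6.16 and 3.17 in 1/2, 1/4 and 1/8, and that of Mpc1 in 1/4, at 0.56. With other libraries left out they went down to -11.2, -6.02 and -9.48 for Ldha and -3.47 for Mpc1. The values -11.2 and -9.48, like the reversed values of Ldha, set counts against a library at 0 counts and have no exact size. A library left alone in its group is assumed to vary like the other groups. Whether same-numbered fractions come from the same oocyte is not stated; r between replicate differences of groups was -0.14 to 0.14 for cycles and -0.11 to 0.10 for fractions.

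With gene counts plus reads on no feature as library size, the summed CPM of the members was 2872 at 10 cycles and 2917 at 14 cycles. With median-ratio size factors in place of CPM it was 2983 and 2959.6. Per 100 counts of the ERCC molecules that reach 10 counts in each library, the sum was 117 at 10 cycles and 62.1 in 1/4. Leaving out libraries in the counts per ERCC count was chosen after seeing the data. Over all genes, calls at 14 against 10 cycles were 2 with DESeq2 and 9 without a filter in place of 0. In 1/2 against whole oocytes at 18 cycles they were 152, 218, 73 (block) and 1 (TMM) in place of 18, and in 1/4 241 (70 higher and 171 lower) with DESeq2, 205 without a filter and 126 (block) in place of 68. In 1/8 against 1/2 they were 1448 with DESeq2 and 1340 without a filter in place of 878, and in 1/8 against 10 cycles 44 and 84 in place of 0. With a library left out they went down from 4053 to 1616 and from 4072 to 1815 at 18 against 10 and 14 cycles, from 2329 to 1098 in 1/8 and from 878 to 83 in 1/8 against 1/2.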
